A study of Rattus norvegicus with 18 samples.

Results

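The kidney transcripts described here stood at least 2-fold apart in mean signal between normotensive Wistar-Kyoto (WKY) rats and both hypertensive strains, spontaneously hypertensive rats (SHRs) and their stroke-prone substrain (SHRSP), in the same direction at 3 and 6 weeks of age. They were chosen by these 4 differences themselves (SHRs minus WKY rats and SHRSP minus WKY rats, at each age). Each group mean difference had to lie above 1 on the log2 scale, or each below -1, and at least 1 group had to have every one of its arrays well above background for that feature. Of 30367 features on the array, 20756 met the background condition and 141 met both, 67 of them higher and 74 of them lower in both hypertensive strains. These 141 are called members below, and the 4 differences are given as a description with no test. A further 13 features past the limits were left out because the selection rule leaves out their gene names, and 21 past the limits were well above background in no group. In all, 104 members carried 1 gene symbol and stood for 100 of the 17332 genes on the array, and 37 had no symbol.

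Total RNA of untreated rat kidneys was labelled with Cy3 and hybridized singly to 18 Agilent arrays of 60-base probes. The 6 groups were WKY rats, SHRs and SHRSP at 3 weeks of age and the same 3 strains at 6 weeks of age, with 3 biological replicates in each. The study asked which kidney transcripts differ between normotensive and hypertensive strains at young ages. WKY rats are the usual normotensive control of SHRs, but a difference between inbred strains need not bear on blood pressure, and no blood pressure was among the files. The log2 signal given below is the log2 of the processed signal after each array was scaled by the upper quartile of its spots above background, so that 0 stands for that quartile (the 75th percentile).

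SHRs were bred from Wistar-Kyoto stock by selection for high blood pressure, and SHRSP were bred from SHRs by selection for stroke. Inbreeding fixed alleles by chance as well as by selection, so the strains differ from WKY rats at many loci without a known tie to pressure. A cis-acting variant, or a loss of a gene, is known to give a difference in transcript level that is present in every animal of a strain and at every age, while a neighbouring gene may be unaffected.

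The arrays had 42877 spots other than controls, of which 70.8 to 76.9% were well above background. The dimmest spot counted as well above background read 12.5 to 35.9 on the linear scale, no spot was saturated, and replicates within a group correlated with Pearson's r of 0.9919 to 0.9985 across 18401 features, which are not independent. Precision is limited by the number of arrays. Markers of the kidney were present: podocyte markers 5 of 5, proximal tubule 6 of 6, loop of Henle 3 of 3 and collecting duct 6 of 6 were well above background on all 18 arrays. Of 3 distal tubule markers 2 were on all 18 arrays, and Pvalb was on none. Endothelial (4 of 4), mesenchymal (4 of 4), blood (4 of 4) and cycling cell (3 of 3 present on the array) markers were on all 18 arrays as well.

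The log2 sum differed from that in WKY rats by -0.37 (SHRs) and -0.09 (SHRSP) at 3 weeks and by -0.18 and -0.39 at 6 weeks for distal tubule markers. In the same order it differed by -0.38, -0.34, 0.01 and 0.10 for the collecting duct, -0.13, 0.07, -0.47 and -0.30 for mesenchyme, -0.22, -0.36, -0.15 and -0.37 for blood and -0.01, -0.76, 0.15 and -0.03 for cycling cells. For endothelium it differed by 0.03, 0.37, 0.10 and 0.14, and for podocytes by -0.02, 0.25, 0.07 and 0.05. For the loop of Henle the values were 0.05, 0.23, -0.09 and -0.02, and for the proximal tubule -0.09, 0.06, -0.10 and -0.10. Some single markers differed more than these sums, Aqp3 by 0.58, 0.72, 1.21 and 1.33 and Cldn16 by -0.96, -0.71, -1.20 and -1.21. Of 7 immune markers 4 were on all 18 arrays and Cd3e, Cd79b and Ms4a1 were on none. Their sum, led by Lyz2, differed from WKY rats by 0.40 (SHRs) and 0.40 (SHRSP) on the log2 scale at 3 weeks and by 0.42 and -0.01 at 6 weeks. Liver markers (1 of 5 on all 18 arrays, led by Fgb) differed by -0.15, -1.26, -0.81 and -0.63 in the same order. Adrenal markers (1 of 5, led by Th, with Star and Dbh on none) differed by 0.19, 0.46, -0.69 and -0.75. Fat markers (2 of 4, led by Ucp1 at 3 weeks, with Plin1 and Lep on none) differed by -0.46, -1.01, -0.01 and -0.38. Their sums in WKY rats at 6 weeks were 0.264, 1.48 and 0.268, so the differences at that age rest on WKY replicate 2. Ucp1 itself differed by 1.24 and 0.91 at 6 weeks, where its WKY mean was -4.08 against -1.79 for Adipoq. In bulk tissue, fewer cells of a type and less RNA per cell cannot be told apart.

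The labels of SHRs and SHRSP call for care. Over all features, 102 were called between SHRSP and SHRs at both ages (limma, adjusted p under 0.05 and beyond 1 on the log2 scale), and 96 of these had opposite signs at the 2 ages. Of the 102, 31 were beyond 2 at both ages, and all 31 had opposite signs. Over the 102 features, the median size of the difference between SHRs at 3 weeks and SHRs at 6 weeks was 1.67, and that between the SHRSP groups was 1.96. Between SHRs at 3 weeks and SHRSP at 6 weeks it was 0.33, and between SHRSP at 3 weeks and SHRs at 6 weeks it was 0.32. Over these features SHRs at 3 weeks thus lay closer to SHRSP at 6 weeks than to SHRs at 6 weeks, and SHRSP likewise to SHRs. Whether labels were exchanged at 1 age was not tested. Which age would then carry the strain names correctly cannot be told apart from these files. The labels were kept. None of the 102 features was a member, and the choice of members treats SHRs and SHRSP alike, so an exchange of their labels would leave the 141 members the same. Values for change with age in SHRs or SHRSP alone rest on the labels, and the change in the mean of both strains does not.

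Scanning of the 5 slides was spread over 3 days. At 3 weeks the first slide held all 3 WKY arrays and SHR replicate 1, and on it alone 129 of 141 members lay past 1. These 4 arrays also entered the choice of members, so the count is no separate test. At 3 weeks no SHRSP array shared a slide with a WKY array of that age, and SHRs did so through replicate 1 alone. At 6 weeks no slide held both WKY and hypertensive arrays of that age. Slide and strain thus cannot be told apart at 6 weeks, nor for SHRSP against WKY rats at 3 weeks.

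**Figure D1:**
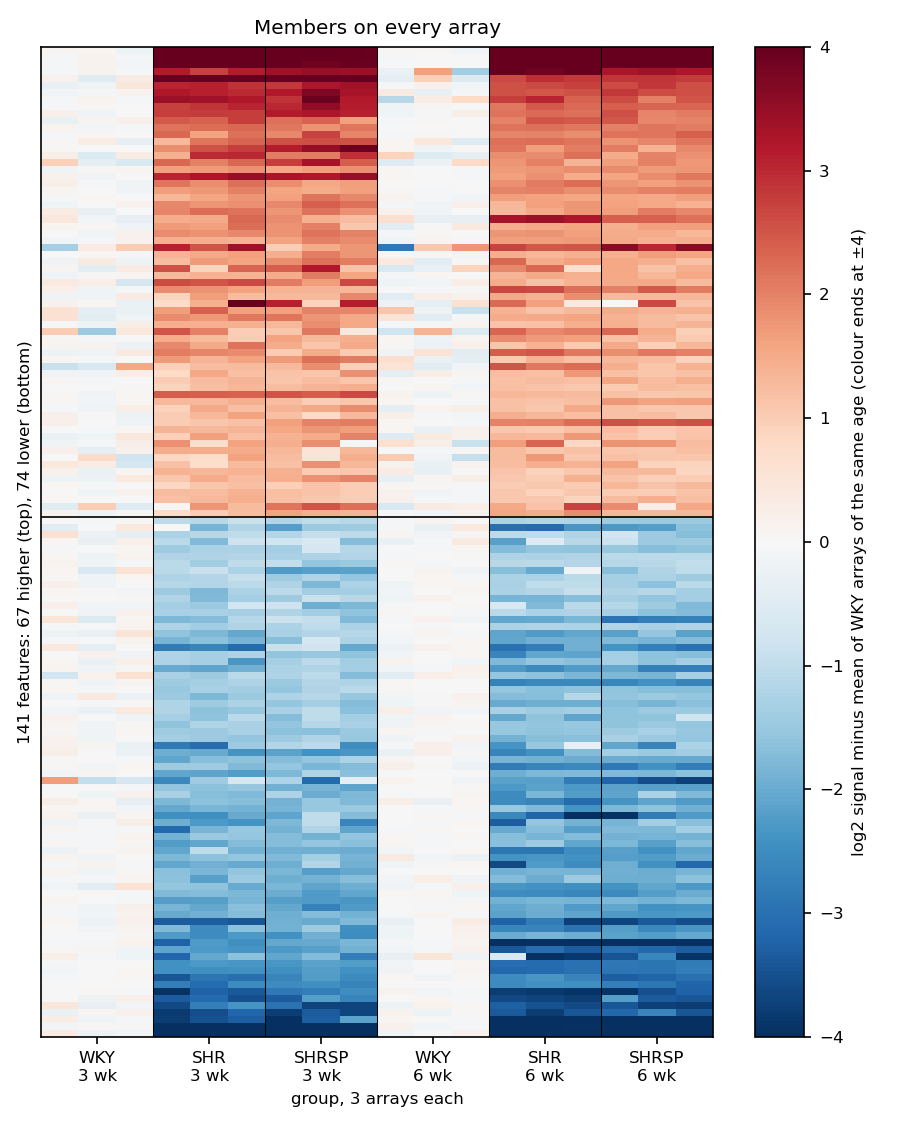
Log2 signal of each of the 141 members (67 higher, top, and 74 lower, bottom) on each of the 18 arrays, minus the mean of the WKY arrays of the same age; colour runs from -4 to 4. The WKY columns stay near white, and most cells of the SHR and SHRSP columns in a block have the same colour, since the choice of members fixes the sign of the group means but not of single arrays.

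The members differed widely among themselves. The median of the 67 higher members was 1.82 for SHRs and 1.76 for SHRSP at 3 weeks and 1.65 and 1.53 at 6 weeks. For the 74 lower members the medians were -1.72, -1.66, -2.04 and -1.94 in the same order. Both strains were set against the same WKY arrays, so their values are not independent. Of the 141 members, 72 were well above background on all 18 arrays (36 higher and 36 lower), and 25 were more than 4-fold apart in all 4 differences (12 higher and 13 lower). In the heat map of all members, 12 higher members were well above background on no WKY array, and 6 of these were so on all 12 SHR and SHRSP arrays. In reverse, 19 lower members were well above background on no SHR or SHRSP array, and 10 of these were so on all 6 WKY arrays. Where an array of the dim group was not well above background, a fold is given as a bound ("at least"), with such arrays set to the lowest signal that counted as well above background on them. With all low signals raised in this way, 50 higher and 58 lower members stayed past the limits, so for the others a 2-fold difference rests on signals near background.

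Far more features passed a single difference than passed all 4. For SHRs minus WKY rats, 228 features lay above 1 and 182 below -1 at 3 weeks, and 235 and 706 at 6 weeks. For SHRSP minus WKY rats the counts were 516 and 281 at 3 weeks and 192 and 691 at 6 weeks. Among the higher members nearest to the limit, the weakest difference was 1.01 for Dsc2, 1.02 for Klhl29 and 1.02 for Bcl2l15. Just outside lay the features A_64_P065611 at 0.997, TC616218 at 0.993 and A_64_P157285 at 0.987. On the lower side Slc66a2 at -1.01, Ifi44l at -1.02 and Reep1 at -1.05 were just inside, and Sphkap at -0.991 and Dynlrb2 at -0.984 were just outside.

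Mt1, Mt2A and Slc30a2, put together here after their values were seen, are higher members that bind or carry zinc. Their shared direction against WKY rats is fixed by the choice, and SHRSP at 6 weeks stood below SHRSP at 3 weeks for Mt1 (-1.07) and above them for Slc30a2 (0.71). Metallothioneins are small cysteine-rich proteins that bind zinc, copper and cadmium, and their genes are switched on by the metal-sensing factor MTF-1 through metal response elements. Mt1 read 3.58, 3.66 and 4.30 at 3 weeks and 2.80, 3.66 and 3.47 at 6 weeks in WKY rats. SHRs read 4.81, 5.47 and 5.05 at 3 weeks and 4.64, 4.60 and 5.03 at 6 weeks. SHRSP read 5.22, 5.33 and 5.84 at 3 weeks and 4.45, 4.30 and 4.44 at 6 weeks. Every hypertensive array lay above every WKY array, with differences of 1.27 (SHRs) and 1.62 (SHRSP) at 3 weeks and 1.45 and 1.09 at 6 weeks. Mt2A was a member with both of its features, and the brighter one read 3.51, 3.52 and 4.10 at 3 weeks and 3.22, 3.65 and 3.77 at 6 weeks in WKY rats. SHRs read 4.78, 5.19 and 4.94 at 3 weeks and 4.63, 4.57 and 4.95 at 6 weeks there. SHRSP read 5.17, 5.54 and 5.68 at 3 weeks and 4.70, 4.50 and 4.56 at 6 weeks. Again every hypertensive array lay above every WKY array, and the differences were 1.26, 1.76, 1.17 and 1.04. The other feature of Mt2A differed by 1.22, 1.60, 1.26 and 1.11.

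A pair of features without a symbol are described as metallothionein 1 in the array annotation. TC609365, 0.3 kb from the Mt1 feature, differed by 1.28, 1.51, 1.59 and 1.30. ENSRNOT00000058957, named here after its values were seen and placed on chromosome X, differed by 1.18, 1.35, 1.39 and 1.15. The probes are shown because their shared bases bear on how far they are separate measurements. Capitals mark the longest run of bases that TC609365 and Mt2A share, 23 bases. TC609365 and ENSRNOT00000058957 share no run longer than 11 bases, but match over 21 bases with 1 mismatch. Probe positions are in rn4.
TC609365, chr19:11262012-11262071, minus strand: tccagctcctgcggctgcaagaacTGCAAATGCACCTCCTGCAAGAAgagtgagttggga
Mt2A (A_64_P158939), chr19:11268168-11268227, minus strand: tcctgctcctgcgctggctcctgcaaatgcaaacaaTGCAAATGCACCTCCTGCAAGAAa
ENSRNOT00000058957, chrX:55288646-55288705, minus strand: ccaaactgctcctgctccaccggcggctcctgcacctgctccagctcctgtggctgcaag

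Slc30a2 encodes the zinc transporter ZnT2, which moves zinc into vesicles. Slc30a2 read -2.15, -2.30 and -2.13 at 3 weeks and -1.96, -2.03 and -2.11 at 6 weeks in WKY rats. SHRs read -0.91, -0.88 and -0.79 at 3 weeks and -0.86, -0.90 and -0.84 at 6 weeks for this gene. SHRSP read -0.96, -1.22 and -1.07 at 3 weeks and -0.31, -0.42 and -0.39 at 6 weeks. All hypertensive arrays were again above all WKY arrays, by 2.52-fold (SHRs) and 2.16-fold (SHRSP) at 3 weeks and by 2.25-fold and 3.16-fold at 6 weeks, and SHRSP stood below SHRs at 3 weeks and above them at 6 weeks without overlap. Other genes of metal handling, a list put together after these values were seen, moved less: Mt3 differed by 0.25, 0.45, 0.46 and 0.73, and Mtf1, which encodes the metal-sensing factor, by -0.09, 0.24, -0.02 and -0.33.

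Windows of 250 bases before the start site were read from RefSeq (GRCr8, from a Brown Norway rat, so not the sequence of SHRs or WKY rats) and searched for TGCACNC and TGCGCNC on both strands, the 2 forms of the core of the metal response element. They are shown because metallothionein genes are known to be switched on through this element. Of 33469 windows, 20.6% held at least 1 match, 4.9% at least 2, 0.266% at least 4 and 0.0269% at least 6. Among 102 windows of the 88 member genes found in the table, 27.5% held at least 1. The window of Mt1 held 6 matches, that of Mt2A 4, and that of Slc30a2 2, while a second start site of Slc30a2 held 0. The genes Mt3 and Mt4, which are not members, had 3 and 1. A match describes the letters and not a bound site. Capitals mark the matches.
Mt1, chr19:10832976-10833225, minus strand: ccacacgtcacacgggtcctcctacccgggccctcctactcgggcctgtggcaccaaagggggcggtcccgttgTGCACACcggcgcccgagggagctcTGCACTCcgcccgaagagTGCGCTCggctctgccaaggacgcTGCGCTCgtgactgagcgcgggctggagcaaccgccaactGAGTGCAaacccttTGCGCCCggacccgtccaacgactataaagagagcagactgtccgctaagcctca
Mt2A, chr19:10838709-10838958, minus strand: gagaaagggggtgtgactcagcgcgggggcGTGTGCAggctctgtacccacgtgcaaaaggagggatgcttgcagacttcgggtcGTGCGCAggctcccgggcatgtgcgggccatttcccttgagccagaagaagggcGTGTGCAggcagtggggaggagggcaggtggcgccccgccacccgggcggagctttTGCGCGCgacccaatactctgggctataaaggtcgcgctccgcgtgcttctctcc
Slc30a2, chr5:151843201-151843450, plus strand: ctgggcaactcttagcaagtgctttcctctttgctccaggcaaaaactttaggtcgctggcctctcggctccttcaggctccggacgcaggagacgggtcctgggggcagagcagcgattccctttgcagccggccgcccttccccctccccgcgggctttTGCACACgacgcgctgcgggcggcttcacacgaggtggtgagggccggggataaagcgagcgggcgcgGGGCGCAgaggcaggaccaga

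**Figure D2:**
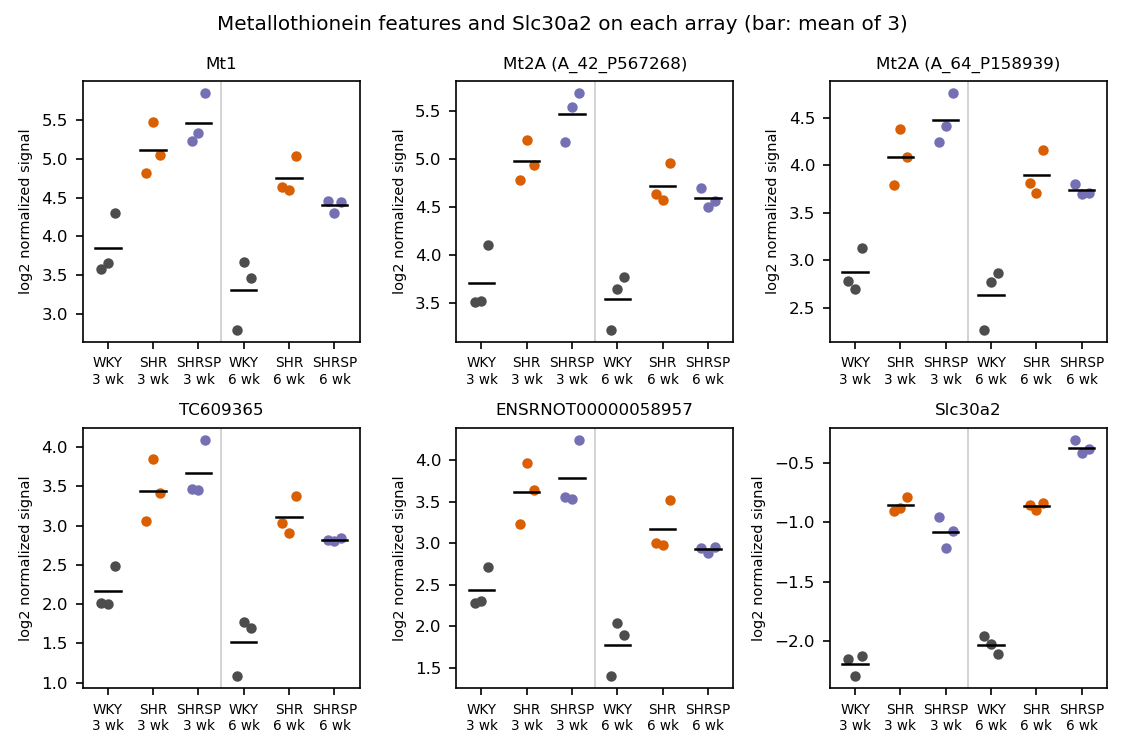
Log2 signal of the metallothionein features and Slc30a2 on each array, by strain and age, with the mean of 3 arrays as a bar. In every panel the SHR and SHRSP points lie above the WKY points of their age, and SHRSP change sides with SHRs between the ages in Slc30a2.

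Enzymes of redox, lipid and conjugating reactions numbered 9, of which 6 were higher and 3 lower. Adtrp, an enzyme that hydrolyses fatty acid esters of hydroxy fatty acids, had the largest weakest difference of the higher members. Adtrp read -5.55, -5.57 and -5.86 at 3 weeks and -5.65, -5.65 and -5.82 at 6 weeks in WKY rats. SHRs read 0.27, 0.20 and 0.36 at 3 weeks and 0.19, 0.26 and 0.10 at 6 weeks for Adtrp. SHRSP read 0.19, -0.16 and -0.14 at 3 weeks and -0.33, -0.41 and -0.55 at 6 weeks. The WKY arrays formed a tight low group far below all others, and SHRs were 61.1-fold higher at 3 weeks and 59.3-fold higher at 6 weeks, against 49.2-fold and 38.8-fold for SHRSP. Oxnad1, a gene with an oxidoreductase NAD-binding domain, read -9.26, -9.07 and -9.28 at 3 weeks and -9.29, -9.23 and -9.23 at 6 weeks in WKY rats, well above background on no array. SHRs read -4.95, -4.21 and -4.18 at 3 weeks and -4.61, -4.83 and -4.96 at 6 weeks for Oxnad1. SHRSP read -4.34, -4.32 and -3.26 at 3 weeks and -4.85, -4.62 and -4.87 at 6 weeks, with replicate 3 at 3 weeks the brightest. All 12 hypertensive arrays were well above background, and the excess of SHRs was at least 6.02-fold at 3 weeks and at least 4.72-fold at 6 weeks. Quantitative PCR reported in the paper did not find Oxnad1 raised in SHRs at 6 weeks, so this excess rests on the array probe alone. Of members described below, Hsd17b13 (both ages) and Ucma (3 weeks) had the array's direction by that PCR.

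Sult1b1, which sulfates phenols and thyroid hormones, read -0.35, -0.52 and -0.32 at 3 weeks and 1.12, 0.80 and 1.06 at 6 weeks in WKY rats. SHRs read 2.02, 1.99 and 1.97 at 3 weeks and 2.31, 2.30 and 2.27 at 6 weeks for this sulfotransferase. SHRSP read 2.10, 2.02 and 2.25 at 3 weeks and 2.18, 2.08 and 2.11 at 6 weeks. The hypertensive arrays changed little and the WKY arrays rose toward them, so the fold of SHRs over WKY rats was 5.25-fold at 3 weeks and 2.47-fold at 6 weeks. Another feature of Sult1b1 differed by 2.40 (SHRs) and 2.57 (SHRSP) at 3 weeks and by 1.12 and 0.96 at 6 weeks, just missing the limit. Scd, which encodes a stearoyl-CoA desaturase, read 0.46, -1.999 and -0.13 at 3 weeks and -4.83, -2.68 and -4.60 at 6 weeks in WKY rats. SHRs read 1.96, 1.45 and 0.44 at 3 weeks and -1.70, -2.12 and -1.99 at 6 weeks for Scd. SHRSP read 0.56, 1.55 and -0.14 at 3 weeks and -1.73, -2.54 and -3.08 at 6 weeks. Replicates of Scd were far apart and the WKY arrays overlapped those of both hypertensive strains at 3 weeks and those of SHRSP at 6 weeks, so its place among the members rests on means.

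Hsd17b13, a lipid droplet enzyme that oxidizes retinol, read -5.34, -5.55 and -5.15 at 3 weeks and -5.12, -5.04 and -5.20 at 6 weeks in WKY rats. SHRs read -8.68, -8.47 and -8.85 at 3 weeks and -8.72, -8.79 and -8.88 at 6 weeks for Hsd17b13. SHRSP read -8.69, -7.57 and -8.003 at 3 weeks and -7.32, -8.44 and -8.55 at 6 weeks. All 6 WKY arrays were well above background and no hypertensive array was, so SHRs were at least 2.84-fold lower at 3 weeks and at least 3.57-fold lower at 6 weeks. Ces1e, a carboxylesterase, read -3.84, -3.99 and -3.59 at 3 weeks and -2.53, -2.63 and -2.48 at 6 weeks in WKY rats. SHRs read -5.68, -5.84 and -5.48 at 3 weeks and -4.61, -4.49 and -4.80 at 6 weeks for Ces1e. SHRSP read -5.84, -6.50 and -6.07 at 3 weeks and -4.62, -4.97 and -4.92 at 6 weeks. The hypertensive arrays were below the WKY arrays of their own age by 3.63-fold (SHRs) and 5.03-fold (SHRSP) at 3 weeks and by 4.25-fold and 4.88-fold at 6 weeks, and all groups rose with age. Another feature of Ces1e differed by -0.29 and -0.23 at 3 weeks and by -2.01 and -1.96 at 6 weeks, so it passed the limit at 6 weeks alone.

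Hpdl, an enzyme related to hydroxyphenylpyruvate dioxygenase and given no role above, read -4.16, -4.37 and -4.55 at 3 weeks and -4.78, -4.87 and -4.94 at 6 weeks in WKY rats. SHRs read -3.36, -3.24 and -3.19 at 3 weeks and -2.88, -2.83 and -2.62 at 6 weeks for Hpdl. SHRSP read -2.72, -2.37 and -2.32 at 3 weeks and -2.29, -2.41 and -2.28 at 6 weeks. The groups were ordered WKY rats, SHRs, SHRSP without overlap at both ages, and SHRs were 2.14-fold higher than WKY rats at 3 weeks and 4.24-fold higher at 6 weeks.

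Secreted and matrix proteins numbered 11 (6 higher and 5 lower). Serpina3m, a serine protease inhibitor, read -8.95, -8.77 and -9.003 at 3 weeks and -9.10, -9.06 and -9.09 at 6 weeks in WKY rats, well above background on no array. SHRs read -4.34, -4.75 and -4.49 at 3 weeks and -3.65, -3.68 and -3.72 at 6 weeks for Serpina3m. SHRSP read -4.63, -5.05 and -4.97 at 3 weeks and -3.99, -3.78 and -3.78 at 6 weeks. The hypertensive arrays were all bright and brighter at 6 weeks, and the excess of SHRs was at least 5.68-fold at 3 weeks and at least 10.3-fold at 6 weeks. Spock2, which encodes the proteoglycan testican-2, was a member with 2 features. The brighter Spock2 feature read -3.76, -3.58 and -3.66 at 3 weeks and -3.93, -3.66 and -3.75 at 6 weeks in WKY rats. SHRs read -0.94, -0.79 and -0.63 at 3 weeks and -1.66, -1.33 and -1.53 at 6 weeks there for Spock2. SHRSP read -0.65, -0.13 and -0.54 at 3 weeks and -1.39, -1.46 and -1.45 at 6 weeks. These arrays did not overlap with those of WKY rats, and SHRs were 7.37-fold higher at 3 weeks. At 6 weeks the mean was -1.51 in SHRs and -3.78 in WKY rats. The dimmer feature was higher by at least 11.6-fold (SHRs) and at least 15.9-fold (SHRSP) at 3 weeks and by at least 6.11-fold and at least 6.24-fold at 6 weeks, and was well above background on 1 WKY array.

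Ucma, a secreted protein of growth plate cartilage, read -4.48, -4.87 and -4.71 at 3 weeks and -5.07, -4.98 and -4.68 at 6 weeks in WKY rats. SHRs read -1.92, -1.90 and -1.91 at 3 weeks and -2.75, -2.63 and -2.70 at 6 weeks for Ucma. SHRSP read -1.52, -1.45 and -1.58 at 3 weeks and -2.34, -2.97 and -2.83 at 6 weeks. All hypertensive arrays were higher than all WKY arrays, and those at 3 weeks were the highest, with SHRSP above SHRs at that age. Albfm1, a member of the albumin family, was lower with 2 features that lie side by side. Its brighter feature read 2.72, 2.80 and 2.80 at 3 weeks and 3.17, 3.28 and 3.36 at 6 weeks in WKY rats. SHRs read 0.36, 0.49 and 0.46 at 3 weeks and 0.21, 0.19 and 0.28 at 6 weeks for Albfm1. SHRSP read 0.43, 0.63 and 0.55 at 3 weeks and 0.40, 0.36 and 0.46 at 6 weeks. WKY arrays were higher at 6 than at 3 weeks and hypertensive arrays were not, so SHRs were 5.05-fold lower at 3 weeks and 8.22-fold lower at 6 weeks. The second feature gave 5.38-fold and 8.47-fold for the same comparisons. The probes are shown because they do not overlap and lie next to each other, so they are separate readings of the same stretch.
Albfm1 (A_64_P071158), chr14:18992807-18992866, minus strand: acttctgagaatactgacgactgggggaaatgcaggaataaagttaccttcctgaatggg
Albfm1 (A_64_P071159), chr14:18992870-18992929, minus strand: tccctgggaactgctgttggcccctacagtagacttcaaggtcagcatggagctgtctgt

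Nmb, which encodes the peptide neuromedin B and was listed with the receptors, read -2.995, -3.06 and -2.82 at 3 weeks and -2.78, -2.60 and -2.78 at 6 weeks in WKY rats. SHRs read -4.99, -4.87 and -4.69 at 3 weeks and -4.86, -4.72 and -4.83 at 6 weeks for Nmb. SHRSP read -4.90, -4.71 and -4.85 at 3 weeks and -4.97, -5.03 and -5.02 at 6 weeks. No hypertensive array reached a WKY array, and SHRs were 3.71-fold lower at 3 weeks and 4.25-fold lower at 6 weeks.

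Receptors, kinases and phosphatases, listed after the values were seen together with a few of their partners such as Nmb and Fkbp5, numbered 14 (6 higher and 8 lower). Tiprl, Or1a1 and Or2ag1, also described here, are not in this count. Gpr35, a G protein-coupled receptor for which kynurenic acid is a ligand, read -7.27, -7.12 and -6.53 at 3 weeks and -6.68, -6.44 and -6.71 at 6 weeks in WKY rats. SHRs read -3.94, -3.85 and -4.09 at 3 weeks and -4.05, -3.97 and -3.89 at 6 weeks for Gpr35. SHRSP read -4.14, -3.74 and -3.62 at 3 weeks and -3.99, -3.77 and -4.04 at 6 weeks. SHR and SHRSP arrays overlapped with each other and not with those of WKY rats, and SHRs were at least 7.43-fold higher at 3 weeks and 6.23-fold higher at 6 weeks. Fkbp5 encodes a co-chaperone of the glucocorticoid receptor that glucocorticoids induce, and it read -1.85, -1.91 and -1.92 at 3 weeks and -1.70, -1.92 and -1.74 at 6 weeks in WKY rats. SHRs read -0.03, 0.65 and 0.87 at 3 weeks and 0.35, -0.12 and 0.25 at 6 weeks for Fkbp5. SHRSP read 1.24, 1.61 and 2.02 at 3 weeks and 0.27, -0.41 and 0.12 at 6 weeks. WKY arrays lay close together at both ages, SHRSP at 3 weeks stood above all other groups, and the hypertensive groups at 6 weeks overlapped.

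Ros1, a receptor tyrosine kinase, read -4.98, -4.61 and -4.54 at 3 weeks and -2.43, -2.77 and -2.52 at 6 weeks in WKY rats. SHRs read -8.53, -8.25 and -7.87 at 3 weeks and -5.94, -6.37 and -5.98 at 6 weeks for Ros1, well above background only at 6 weeks. SHRSP read -8.48, -8.03 and -8.37 at 3 weeks and -5.71, -5.20 and -5.997 at 6 weeks. All 3 strains rose with age and the hypertensive arrays remained below the WKY arrays, by at least 4.43-fold (SHRs) at 3 weeks and by 11.5-fold at 6 weeks. Tiprl, a regulator of protein phosphatase 2A, was lower with 1 feature, by at least 2.28-fold, at least 2.65-fold, at least 2.93-fold and at least 3.51-fold, but SHR replicate 1 at 6 weeks read -5.57 and was well above background. Another Tiprl feature, well above background on all 18 arrays, differed by 0.07, -0.14, 0.20 and 0.34, so the 2 features of this gene did not move together. Galr2, a galanin receptor, was lower by at least 2.66-fold, at least 2.48-fold, at least 1.99-fold and at least 2.26-fold with replicates far apart. No WKY array was well above background for the phosphatase gene Dusp15, and at 3 weeks only 1 SHR and 1 SHRSP array were. At 6 weeks SHRs were at least 2.52-fold and SHRSP at least 2.62-fold higher. The olfactory receptor genes Or1a1 and Or2ag1 were dim members, with weakest differences of 1.27 and 1.77, and Or1a1 overlapped between strains at 6 weeks.

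Channels and transporters beside Slc30a2 numbered 8 (4 higher and 4 lower). Slc49a3, a transporter of the SLC49 family, was a member with 2 features, and the brighter read -5.30, -5.21 and -5.03 at 3 weeks and -3.66, -4.30 and -4.07 at 6 weeks in WKY rats. SHRs read -1.99, -2.08 and -2.19 at 3 weeks and -1.46, -1.53 and -1.46 at 6 weeks for Slc49a3. SHRSP read -1.99, -1.46 and -1.88 at 3 weeks and -1.17, -1.41 and -1.43 at 6 weeks. The hypertensive arrays were all higher, by 8.54-fold (SHRs) and 10.6-fold (SHRSP) at 3 weeks and by 5.76-fold and 6.36-fold at 6 weeks. Its second feature was higher by at least 2.69-fold, at least 2.61-fold, at least 2.26-fold and at least 2.5-fold. Nalf1, an auxiliary subunit of the sodium leak channel NALCN, read -9.28, -9.09 and -9.30 at 3 weeks and -8.01, -6.11 and -9.15 at 6 weeks in WKY rats. SHRs read -6.05, -6.50 and -6.09 at 3 weeks and -3.69, -3.89 and -3.76 at 6 weeks for Nalf1. SHRSP read -5.82, -5.73 and -5.75 at 3 weeks and -4.50, -4.36 and -4.51 at 6 weeks. WKY replicate 2 at 6 weeks was the 1 WKY array well above background, and every hypertensive array exceeded the WKY arrays of its age.

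Pkd2l1, a polycystin cation channel, read -4.66, -4.75 and -4.54 at 3 weeks and -5.46, -5.30 and -5.14 at 6 weeks in WKY rats. SHRs read -6.40, -7.17 and -6.29 at 3 weeks and -7.92, -7.98 and -8.24 at 6 weeks for Pkd2l1. SHRSP read -6.54, -6.08 and -7.11 at 3 weeks and -7.52, -7.89 and -7.62 at 6 weeks. The hypertensive arrays were lower at both ages, well above background on 4 of 12 arrays, all at 3 weeks. Among members given no role was the tetraspanin gene Tspan1, which read 2.78, 2.83 and 2.82 at 3 weeks and 2.79, 2.80 and 2.83 at 6 weeks in WKY rats. SHRs read 0.03, -0.26 and 0.30 at 3 weeks and 0.27, 0.38 and 0.34 at 6 weeks for Tspan1. SHRSP read 0.30, 0.37 and 0.15 at 3 weeks and 0.06, -0.08 and -0.39 at 6 weeks. The 6 WKY arrays of Tspan1 were nearly equal and far above all others, and SHRs were 6.89-fold lower at 3 weeks and 5.56-fold lower at 6 weeks. Tmem14a, a small membrane protein also given no role, was higher by 4.67-fold (SHRs) and 4.04-fold (SHRSP) at 3 weeks and by 4.48-fold and 4.17-fold at 6 weeks. Slc66a2 was among the weakest members, at -1.01, -1.10, -1.22 and -1.45, and its other feature differed by -0.94, -1.04, -1.17 and -1.47. Sv2a, a synaptic vesicle protein, differed by 1.51, 1.76, 1.40 and 1.57.

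Cytoskeletal and ciliary genes numbered 8 (4 higher and 4 lower). Myo16, an unconventional myosin, read -3.46, -3.33 and -3.31 at 3 weeks and -3.08, -3.35 and -3.32 at 6 weeks in WKY rats. SHRs read -8.73, -8.67 and -7.42 at 3 weeks and -8.09, -7.59 and -7.20 at 6 weeks for Myo16. SHRSP read -7.95, -8.02 and -8.48 at 3 weeks and -7.87, -8.57 and -7.76 at 6 weeks. The feature was well above background on all 6 WKY arrays and on no hypertensive array, so SHRs were at least 11.2-fold lower at 3 weeks and at least 13-fold lower at 6 weeks. Krt76, a keratin of stratified epithelia, read -3.41, -3.39 and -3.32 at 3 weeks and -2.03, -2.25 and -2.07 at 6 weeks in WKY rats. SHRs read -6.80, -6.26 and -6.40 at 3 weeks and -4.62, -4.46 and -4.78 at 6 weeks for Krt76. SHRSP read -6.02, -5.61 and -5.92 at 3 weeks and -5.43, -5.30 and -5.10 at 6 weeks. SHRSP stood above SHRs at 3 weeks and below them at 6 weeks, both without overlap, and all hypertensive arrays were below all WKY arrays. Nefh, the heavy neurofilament subunit, was well above background on no WKY array and on all 12 hypertensive arrays, and SHRs had at least 2.47-fold the WKY level at 3 weeks and at least 2.51-fold that level at 6 weeks.

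Myl11, the regulatory light chain of fast skeletal myosin, read -4.38, -4.74 and -4.65 at 3 weeks and -4.44, -4.46 and -4.37 at 6 weeks in WKY rats. SHRs read -2.70, -2.80 and -2.98 at 3 weeks and -1.76, -1.77 and -2.23 at 6 weeks for Myl11. SHRSP read -3.20, -3.24 and -3.27 at 3 weeks and -2.41, -1.98 and -2.33 at 6 weeks. The hypertensive arrays were higher at both ages and highest at 6 weeks. This gene, under its older symbol Mylpf, was also the most abundant of 5 skeletal muscle markers and the only one on all 18 arrays. The summed linear level of the 5 markers in WKY rats was 0.0717, 0.0676 and 0.0678 at 3 weeks and 0.108, 0.087 and 0.0914 at 6 weeks. SHRs gave 0.177, 0.184 and 0.159, then 0.319, 0.33 and 0.246. SHRSP gave 0.148, 0.172 and 0.164, then 0.212, 0.287 and 0.231. All 5 were well above background on at least 1 array. The summed difference was 1.33, 1.22, 1.64 and 1.34, while Acta1 differed by 0.22, 1.1001, -1.24 and -1.48, Ckm by 0.52, 1.78, 0.18 and 0.09, Myh4 by -0.05, 0.10, -0.28 and -0.11 and Tnnt3 by -0.01, 0.78, -0.31 and -0.47. The sum includes Myl11 itself, which was chosen for this difference. The part of muscle in the Myl11 result was not tested.

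Immune genes numbered 8, of which 7 were lower. Timd2, a receptor for ferritin, read -0.63, -0.83 and -0.57 at 3 weeks and 0.46, 0.39 and 0.39 at 6 weeks in WKY rats. SHRs read -2.09, -2.01 and -1.91 at 3 weeks and -2.29, -2.18 and -2.17 at 6 weeks for Timd2. SHRSP read -2.15, -1.83 and -1.90 at 3 weeks and -2.18, -1.99 and -2.26 at 6 weeks. The 12 hypertensive arrays lay close together, and the WKY arrays were above them at 3 weeks and farther above them at 6 weeks. Defb29, a beta-defensin, read -2.07, -1.90 and -2.20 at 3 weeks and -2.36, -2.24 and -2.17 at 6 weeks in WKY rats. SHRs read -3.26, -3.39 and -3.29 at 3 weeks and -4.89, -4.34 and -4.36 at 6 weeks for Defb29. SHRSP read -3.62, -3.56 and -3.68 at 3 weeks and -3.61, -3.90 and -3.94 at 6 weeks. SHRs at 6 weeks were the lowest group, and SHRSP lay just below SHRs at 3 weeks and above them at 6 weeks. Igsf7 l1 and Cd300c2l1, named after CD300-type receptors of white blood cells, were both lower. Igsf7 l1 was well above background on all 6 WKY arrays and on no hypertensive array, and SHRs were at least 2.78-fold lower at 3 weeks and at least 3.52-fold lower at 6 weeks. Cd300c2l1 was dim in WKY rats too, with 1 of 3 arrays at 3 weeks well above background. With low signals raised to the lowest well above background, its weakest difference was 0.0197, so its direction rests on signals near background. The summed immune markers, led by Lyz2, were not lower in either hypertensive strain at 3 weeks, while Ptprc, a marker of all white blood cells, differed by -0.14, -0.44, -0.23 and -0.30. Their part in the immune members was not tested.

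Nuclear proteins and a mitochondrial nuclease numbered 8 (3 higher and 5 lower). Tp73, a transcription factor of the p53 family, read -8.17, -7.96 and -8.20 at 3 weeks and -9.19, -7.80 and -7.29 at 6 weeks in WKY rats, well above background on no array. SHRs read -4.67, -4.74 and -4.90 at 3 weeks and -5.34, -5.05 and -5.72 at 6 weeks for Tp73. SHRSP read -5.22, -4.17 and -4.93 at 3 weeks and -5.49, -6.09 and -5.59 at 6 weeks. All 12 hypertensive arrays were well above background, and the rise over WKY rats was at least 4.81-fold for SHRs at 3 weeks and at least 3.19-fold at 6 weeks. Endog, a nuclease of mitochondria, read 0.17, 0.03 and -0.03 at 3 weeks and -0.26, -0.25 and -0.35 at 6 weeks in WKY rats. SHRs read -2.15, -2.14 and -1.80 at 3 weeks and -2.18, -2.12 and -2.15 at 6 weeks for Endog. SHRSP read -2.15, -2.22 and -2.29 at 3 weeks and -2.09, -2.17 and -2.10 at 6 weeks. The 12 hypertensive arrays lay close together and all below the WKY arrays, with SHRs 4.25-fold lower at 3 weeks and 3.64-fold lower at 6 weeks. Med17, a subunit of the Mediator complex, was lower by 2.64-fold, 2.43-fold, 3.05-fold and 3.17-fold. Rnf40, a ubiquitin ligase for histone H2B, was higher by 2.19-fold, 2.55-fold, 2.21-fold and 2.25-fold.

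Some members far from WKY rats had no symbol. ENSRNOT00000036545 read -0.94, -1.45 and -1.36 at 3 weeks and -1.90, -1.72 and -1.57 at 6 weeks in WKY rats. SHRs read -8.58, -8.69 and -8.89 at 3 weeks and -8.68, -8.76 and -8.82 at 6 weeks for it. SHRSP read -8.92, -9.22 and -9.01 at 3 weeks and -8.79, -8.42 and -8.68 at 6 weeks. No hypertensive array was well above background and all WKY arrays were, so SHRs were at least 48.6-fold lower at 3 weeks and at least 37.3-fold lower at 6 weeks, and SHRSP at least 56.4-fold and at least 32.9-fold lower. ENSRNOT00000055412, 14.3 kb from the feature of Defb29, read -2.02, -1.97 and -2.23 at 3 weeks and -1.47, -1.40 and -1.18 at 6 weeks in WKY rats. SHRs read -4.18, -4.36 and -4.43 at 3 weeks and -4.73, -4.39 and -4.69 at 6 weeks for it. SHRSP read -4.36, -4.25 and -3.97 at 3 weeks and -4.38, -4.48 and -4.63 at 6 weeks. WKY arrays were highest at 6 weeks, and hypertensive arrays were below all of them. Mpped1, a metallophosphoesterase, was higher by at least 1.8-fold, at least 2.62-fold, 3.49-fold and 2.63-fold, and its other feature differed on the log2 scale by -0.08, 0.15, -0.23 and 0.01.

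**Figure D3:**
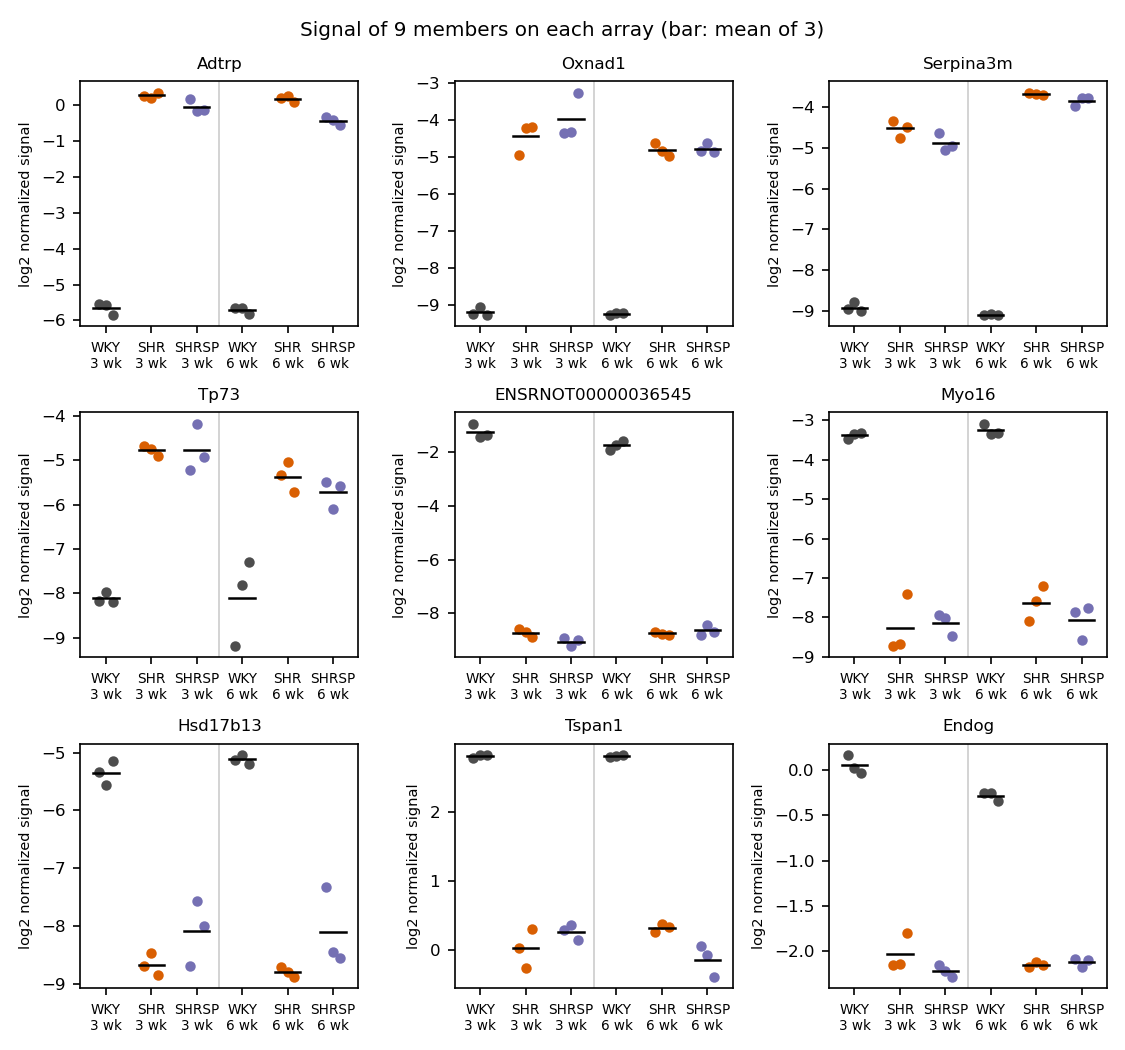
Log2 signal of 9 members on each array by strain and age, with the mean of 3 arrays as a bar. In Adtrp, Oxnad1, Serpina3m and Tp73 every WKY point lies below all others, and in ENSRNOT00000036545, Myo16, Hsd17b13, Tspan1 and Endog every WKY point lies above all others.

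Each value rests on 1 probe, and the probes of 5 members far apart between strains are shown so that they can be set against strain genomes, which were not among the files. Whether the probe bases match the genomes of WKY rats, SHRs and SHRSP was not tested.
ENSRNOT00000036545, chr8:127499953-127500012, plus strand: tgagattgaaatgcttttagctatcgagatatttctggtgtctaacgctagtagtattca
Hsd17b13, chr14:6915488-6915547, plus strand: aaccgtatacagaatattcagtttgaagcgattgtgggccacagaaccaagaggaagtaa
Endog, chr3:9187223-9187282, plus strand: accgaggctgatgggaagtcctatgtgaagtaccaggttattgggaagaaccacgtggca
Gpr35, chr9:92259098-92259157, plus strand: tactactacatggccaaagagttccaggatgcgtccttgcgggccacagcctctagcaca
Krt76, chr7:140582303-140582362, minus strand: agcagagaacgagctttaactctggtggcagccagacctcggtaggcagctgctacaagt

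The genes named here had 15 other features that were not members. Of these, 12 were well above background on at least 1 array, and 3 of the 12 (of Ces1e, Slc66a2 and Sult1b1) had the sign of the member in all 4 differences. The others include Tiprl and Mpped1 above, LOC497952 at 0.20, 0.30, 0.09 and -0.05, and RGD1309310 at -0.15, -0.11, 0.13 and 0.06. Another feature of Itga10 differed by -0.07, 0.41, -0.60 and -0.60. For ENSRNOT00000040473, the feature A_64_P056427 differed by 0.07, 0.10, 0.02 and 0.11 and A_64_P116298 by -0.16, 0.33, -0.12 and -0.10. Its feature A_64_P080580, well above background on no array, differed by -1.21, -1.07, -1.45 and -1.41. Median GC content of the probes was 41.7% for higher and 41.7% for lower members, against 45% for all features well above background in at least 1 group.

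Members were spread over the genome. An rn4 position was known for 139, on 25 chromosome names, with 12 members on chromosome 1 (0.499% of its features well above background) and 9 on chromosome 14 (1.35%). Within 500 kb of a member of another gene lay 36 members, in 27 pairs and 15 groups, and 16 of the pairs had the same direction. These are pairs of features and not of genes, so the features of Mt2A and of Albfm1 enter more than once. TC609365, annotated as metallothionein 1, also counts apart from Mt1. No share over all features stands beside these counts, so they are a description. The tightest group was Fam115c with ENSRNOT00000050392 on chromosome 4, within 1.0 kb and both lower. The metallothionein group on chromosome 19 spanned 6.6 kb with 4 features, all higher, and no other feature well above background lay inside it. Albfm1 and ENSRNOT00000060548 on chromosome 14 spanned 21.0 kb with 3 features, all lower. Cd300c2l1 and Igsf7 l1 spanned 19.8 kb on chromosome 10, both lower, and ENSRNOT00000040473 and Ces1e spanned 94.8 kb on chromosome 19, both lower.

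Other groups held both directions or many features that did not move. On chromosome 2, Sv2a, Hjv and Itga10 were higher and Ankrd35 was lower within 491.0 kb, and of 25 features between them that were not members, 19 were within 0.5 in all 4 differences. Itga10, an integrin chain, overlapped between strains at 6 weeks. On chromosome 3, Defb29 and ENSRNOT00000055412 were lower and Dusp15 higher within 440.7 kb, and 9 of 17 others were within 0.5. Med17 (lower) and ENSRNOT00000029634 (higher) lay 55.3 kb apart on chromosome 8, and Hhatl (higher) and ENSRNOT00000036545 (lower) 346.8 kb apart on the same chromosome. Opposite directions also met in Hpdl and Dynlt4 on chromosome 5, Pkd2l1 and Scd on chromosome 1, RGD1309310 and Galr2, and LOC497952 and Or1a1, the last pairs both on chromosome 10. Myl11 and Rnf40 on chromosome 1 and Fbxo36 and Itm2c on chromosome 9 were higher together, 416.2 and 467.3 kb apart.

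Over all features well above background in at least 1 group, 141 of 20756 were members. In gene families taken by name they were 4 of 354 for solute carriers, 2 of 69 for oxidoreductases and 1 of 47 for conjugating enzymes. They were 1 of 27 for serpins, 2 of 55 for collagens, laminins and testicans, 1 of 130 for interleukins, chemokines and CD antigens, and 2 of 52 for myosins. The counts were 1 of 207 for Tmem genes, 1 of 19 for tetraspanins and 2 of 121 for olfactory receptors. No member was among 360 features with names of transcription factor families, a list by name that misses Tp73 and other factors among the members, or among 16 of the renin-angiotensin system.

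The choice of members set no limit on the differences between SHRSP and SHRs, but these are made of the differences from WKY rats that did choose them, so the counts are a description and not a test apart from the choice. The sign of each also rests on the labels: exchanged labels at an age would turn the differences of that age round. At 3 weeks of age, 101 members were well above background on all arrays of SHRSP or SHRs, and 1 of them was called (limma, adjusted p under 0.05 and beyond 1), 0.99% against 1.13% of 19938 features. At an unadjusted p under 0.05 there were 40, against 130 of 348 solute carrier and 131 of 345 transcription factor features tested. The median size was 0.28 for members and 0.18 for all features. The called member was Fkbp5, higher in SHRSP by 1.13 (standard error 0.24, adjusted p 0.0102), with all 3 SHRSP arrays above all 3 SHR arrays. Without SHR replicate 1 at 3 weeks the difference was 0.86, and without SHRSP replicate 3 at 3 weeks it was 0.93, neither beyond 1. It was 0.93 with scan day as a block and 0.67 with slide as a fixed term, and was not called in either.

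At 6 weeks, none of 106 members tested was called by limma, against 0.915% of 19669 features. An unadjusted p under 0.05 was met by 25, against 61 of 343 solute carrier and 61 of 343 transcription factor features. The median size was 0.18 for members and 0.09 for all features. Some members differed by less than 1 with all arrays of SHRSP on 1 side of those of SHRs: Defb29 by 0.71 (standard error 0.13, adjusted p 0.00669), Adtrp by -0.61 (0.11, 0.00413) and Slc30a2 by 0.49 (0.08, 0.00137). Over the 94 members tested at both ages, the largest size was 1.58 at 3 weeks and 0.84 at 6 weeks, 78 were within 0.5 at both ages and 91 within 1, which is 83% and 96.8%, against 88.8% and 98.4% of the 19222 other features tested at both. On slide 2 alone, which held 2 SHRSP and 2 SHR arrays at 3 weeks, 7 of 141 members lay beyond 1, with a median size of 0.29. On slide 4 alone, which held 1 SHRSP and 3 SHR arrays at 6 weeks, 3 did, with a median size of 0.19. No share of all features on these slides stands beside the counts, and those of slide 4 rest on a single SHRSP array.

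**Figure D4:**
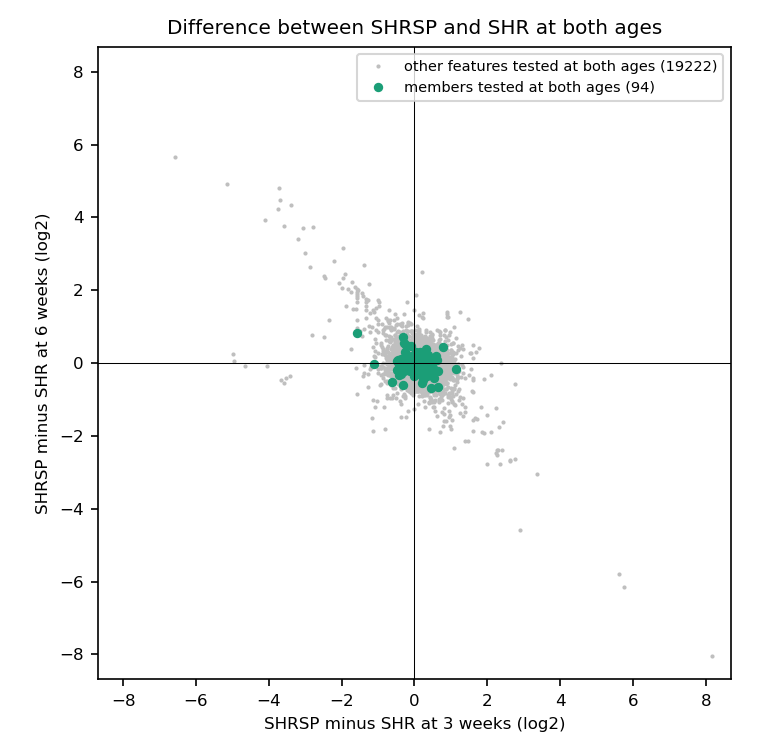
Log2 difference between SHRSP and SHRs at 3 weeks (horizontal) and 6 weeks (vertical) for the 94 members tested at both ages and the 19222 other features tested at both. Members lie within 1.58 at 3 weeks and 0.84 at 6 weeks, and most of the far features lie along the diagonal of opposite signs.

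The difference between SHRSP and SHRs changed with age in 3 of 113 members tested, against 2.55% of 20291 features. An unadjusted p under 0.05 was met by 24 members, against 102 of 350 solute carrier and 92 of 354 transcription factor features. At any size 11 had an adjusted p under 0.05, against 8.37% of features. These values rest on the labels: with those of SHRs and SHRSP exchanged at 6 weeks, 1 of 113 members was called against 0.665% of features, and none of the 3 described next, with changes of 0.02 for Krt76, -0.97 for Fkbp5 and -0.41 for Defb29. Krt76 changed by -1.30 (standard error 0.20, adjusted p 0.000965), since all 3 SHRSP arrays were above the SHR arrays at 3 weeks and below them at 6 weeks. Fkbp5 changed by -1.29 (0.34, 0.0317), with SHRSP above SHRs on all 3 arrays at 3 weeks and overlapping them at 6 weeks. Defb29 changed by 1.02 (0.19, 0.00389), with all 3 SHRSP arrays below the SHR arrays at 3 weeks and above them at 6 weeks. The change of Krt76 was called whichever array was left out, but not with array weights (-0.98) or normexp background correction (-0.60), and SHR arrays at 3 weeks were not all well above background. That of Fkbp5 was -0.82 with scan day as a block (adjusted p 0.366) and -0.55 with slide as a fixed term (0.472), and it was not called without SHR replicate 1 (-1.03), SHRSP replicate 2 (-1.30) or SHRSP replicate 3 (-1.09) at 3 weeks. At 6 weeks it was not called without SHR replicate 1 (-1.20) or 3 (-1.25), or SHRSP replicate 2 (-1.09) or 3 (-1.36). That of Defb29 was 0.88 with array weights and 0.78 with normexp. It was just under 1 without SHR replicate 1 or SHRSP replicate 3 at 3 weeks (0.9965 and 0.9937), and was 0.84 without SHR replicate 1 and 0.92 without SHRSP replicate 1 at 6 weeks. Only 1 member was called without SHR replicate 1 at 3 weeks, without SHRSP replicate 3 at 3 weeks or without SHR replicate 1 at 6 weeks.

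The choice set no limit on change with age within a strain, but its group means and background filter took in both ages, so these counts too are a description. In WKY rats, 18 of 116 members tested were called between 6 and 3 weeks (16 up and 2 down), 15.5% against 3.55% of 20399 features. An unadjusted p under 0.05 was met by 56, against 180 of 348 solute carrier and 134 of 354 transcription factor features. In SHRs, 14 of 109 were called (11 up and 3 down), 12.8% against 3.41% of 19742 features. In SHRSP, 17 of 106 were called (10 up and 7 down), 16% against 6.11% of 20100 features. With the labels exchanged at 6 weeks 10 of 104 were called in SHRs and 23 of 111 in SHRSP. In the mean of SHRs and SHRSP, which does not rest on their labels, 13 of 113 were called (11 up and 2 down), 11.5% against 3.36% of 20291 features. With every group compared well above background, 11 of 100 members were called in WKY rats against 2.58% of all features, 7 of 90 in SHRs against 2.32% and 13 of 94 in SHRSP against 4.76%. These shares describe the members, and the list was not tested as a set. Age and scan day cannot be told apart in these arrays except through SHRSP replicate 3 at 3 weeks, which was scanned on the second day with most arrays at 6 weeks. The median size of the change in WKY rats was 0.39 for members and 0.22 for all features tested, and 0.42 and 0.23 in the mean of both hypertensive strains.

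At least 1 strain had a call in 33 of 141 members, 23.4% against 8.75% of 20749 features, and 5 of the 84 tested in all 3 strains were called in all 3 with the same sign, 5.95% against 0.941% of 19440 features. Mpped1 rose by 2.76 in the mean of both hypertensive strains (standard error 0.17, adjusted p 4.75e-08). It rose in WKY rats too, but no WKY array at 3 weeks was well above background, so the fitted 2.93 (adjusted p 1.89e-06) is no exact size, and normexp gave 0.80, not called. For Mpped1 all 9 arrays at 6 weeks lay above those of the same strain at 3 weeks. Ros1 rose by 2.14 (0.22, 1.37e-05) in WKY rats. No SHR or SHRSP array at 3 weeks was well above background for Ros1, so the sizes of its changes in these strains are not exact. The change in SHRs was 0.76 with low signals raised and 0.37 with normexp, and that in SHRSP was 0.57 with normexp, none of them called. The call in SHRSP was not lost with low signals raised. Ces1e rose by 1.26 in WKY rats (0.16, 0.000109) and 1.17 in the hypertensive mean (0.11, 3.2e-06), on all 9 arrays, but normexp gave 0.54 in SHRs and 0.55 in SHRSP. With scan day as a block its change in WKY rats was 1.15 at an adjusted p of 0.0753. Scd changed by -3.48 (0.68, 0.00213) and -3.16 (0.48, 0.000124), lower on all 9 arrays at 6 weeks, but with scan day as a block it was called in no strain. The fifth was A_64_P090824, named here for this count after its values were seen, which rose by 1.97 in WKY rats, 1.65 in SHRs and 1.95 in SHRSP. With slide as a fixed term the WKY changes of Mpped1, Ros1, Ces1e and Scd were 2.52, 1.78, 1.13 and -1.27, and none of them was called.

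Other members were called in fewer strains. In SHRs, Nalf1 rose by 2.43 (0.49, 0.00222) and Krt76 by 1.87 (0.14, 5.55e-07), each on all 3 arrays at 6 weeks, and in the mean of both strains by 1.87 (0.000489) and 1.22 (7.71e-07), both called. Krt76 rose in WKY rats as well, by 1.26 (3.87e-05), and Nalf1 in SHRSP, by 1.31 (0.0366). The call of Nalf1 in SHRSP was lost whichever SHRSP array was left out, at an adjusted p of 0.0691 to 0.0848. It was also lost with array weights (1.26, 0.0504), scan day as a block (1.25, 0.347) and normexp (0.67). That of Krt76 in WKY rats was lost with slide as a fixed term (0.89, 0.137). In SHRs neither Nalf1 nor Krt76 had all 3 arrays at 3 weeks well above background, and normexp gave 0.76 for Krt76, not called. With scan day as a block the change of Nalf1 in SHRs was about as large (2.41) at an adjusted p of 0.143. In SHRSP, Fkbp5 changed by -1.63 (0.24, 0.000137) and Mt1 by -1.07 (0.25, 0.00352), lower on all 3 arrays at 6 weeks. In the mean of both strains they changed by -0.98 and -0.71, neither called. With the labels exchanged at 6 weeks the change of Mt1 in SHRSP was -0.709 and not called, so that call rests on the labels. The call of Fkbp5 in SHRSP was not lost with this exchange, though its size depends on the labels. In WKY rats, Mt1 changed by -0.54 at an adjusted p of 0.12, lower on 2 of 3 arrays than any at 3 weeks, and was not called. The change with age of the strain difference of Mt1 was -0.17 at an adjusted p of 0.738, so Mt1 was not shown to change differently. Without SHRSP replicate 3 at 3 weeks the change of Mt1 in SHRSP was -0.88, with the 75th percentile of all spots it was -0.95 and with quantile normalization -0.91, none of them beyond 1.

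The choice of members put a floor under the strain difference at each age. The difference between the mean of both hypertensive strains and WKY rats changed from 3 to 6 weeks in 12 of the 141 members. All 141 were tested, and the share called (2 up and 10 down) was 8.51% against 4.08% of 20749 features. An unadjusted p under 0.05 was met by 44, against 110 of 353 solute carrier and 106 of 360 transcription factor features. At any size 31 had an adjusted p under 0.05, against 17.9% of features. The change is made of the same differences that chose the members, and many members passed the background filter only through the groups where they are high. With every group well above background 4 of 72 members were called (all down), against 3.24% of 18401 features. The median change was -0.17 for members and -0.10 for all features. Timd2 changed by -1.29 (standard error 0.12, adjusted p 3.54e-05), since WKY rats rose by 1.09 on all 3 arrays and the hypertensive mean changed by -0.20. That rise in WKY rats was 0.998 with scan day as a block and 0.86 with slide as a fixed term (adjusted p 0.111), and was called in neither. Sult1b1 changed by -1.24 (0.11, 1.93e-05), with a rise of 1.39 in WKY rats on all 3 arrays and of 0.15 in the hypertensive mean. For Timd2 the gap between strains widened, and for Sult1b1 it narrowed, though by -0.92 and not called with normexp.

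Serpina3m changed by 1.11, with all 6 hypertensive arrays at 6 weeks above those at 3 weeks, but no WKY array was well above background, so this is no exact size. Fkbp5 changed by -1.09 (0.29, 0.021), since SHRSP fell on all 3 arrays while WKY rats changed by 0.10. The dimmer feature of Spock2 changed by -2.01 with WKY arrays near background, again no exact size, and the brighter feature changed by -0.75 (0.16, 0.00609), lower on all 6 hypertensive arrays at 6 weeks. ENSRNOT00000055412 changed by -1.02 (0.16, 0.00078), with all 3 WKY arrays higher at 6 weeks. Hhatl, a protein related to hedgehog acyltransferase, changed by 1.18, higher on all 6 hypertensive arrays at 6 weeks than on those of the same strain at 3 weeks, but no WKY array was well above background for it. With low signals raised to the floor of each array, the change of Hhatl was 0.88 and its weakest difference from WKY rats was -0.03. Calls near the limits rested on single arrays or settings. With scan day as a block Hhatl changed by 1.14 at an adjusted p of 0.0887, Fkbp5 by -0.85 at 0.0871 and ENSRNOT00000055412 by -0.90. With the 75th percentile of all spots and with quantile normalization Fkbp5 changed by -0.986 and -0.9965 and ENSRNOT00000055412 by -0.91 and -0.86, and with low signals raised Serpina3m changed by 0.94. The call of Hhatl was lost without WKY replicate 1 (0.96) or 2 (1.24), SHR replicate 2 (1.12) or SHRSP replicate 3 (1.12) at 3 weeks, and without WKY replicate 2 (1.03) or 3 (1.02) at 6 weeks. That of Fkbp5 was lost without WKY replicate 2 (-1.08), SHR replicate 3 (-0.9951) or SHRSP replicate 3 (-0.99) at 3 weeks, and without WKY replicate 1 (-1.04) or 3 (-1.07) or SHRSP replicate 2 (-0.99) at 6 weeks. ENSRNOT00000055412 fell short of 1 in size without WKY replicate 3 (-0.94), SHR replicate 1 (-0.98) or SHRSP replicate 3 (-0.96) at 3 weeks, and without WKY replicate 3 (-0.93), SHR replicate 1 (-0.99) or 3 (-0.9952) or SHRSP replicate 3 (-0.98) at 6 weeks. Without WKY replicate 2 at 3 weeks, or without WKY replicate 3 at 6 weeks, 7 members were called. In all, 103 members (73%) were called in none of the tested comparisons, against 88.8% of 20749 features.

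**Figure D5:**
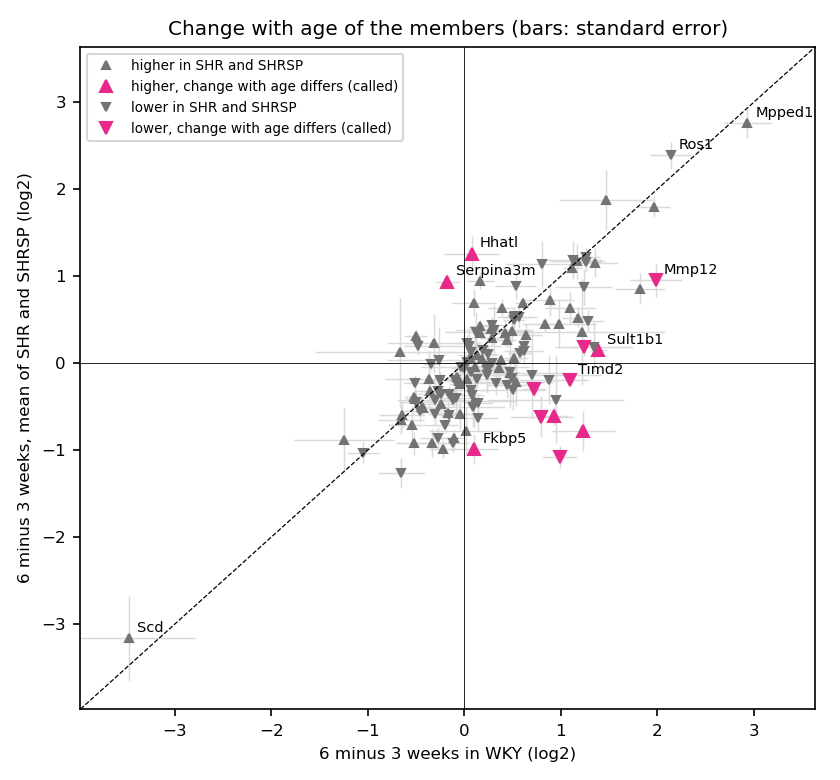
Change from 3 to 6 weeks in WKY rats (horizontal) and in the mean of SHRs and SHRSP (vertical) on the log2 scale, with standard errors as bars; the dashed line marks equal change. Coloured members are those called for a different change, with Timd2, Sult1b1, Mmp12 and Fkbp5 below the line and Serpina3m and Hhatl above it.

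In the families listed above, the same change with age of the strain difference was called in 8 of 353 features of solute carriers (1 up and 7 down) against 4.08% of all features, 3 of 68 of oxidoreductases (all down) and 8 of 47 of conjugating enzymes (all down). It was called in 3 of 27 serpins (2 up), 3 of 55 matrix features (1 up), 6 of 360 transcription factors (all down), 1 of 130 immune features and 1 of 207 Tmem features (both down). In olfactory receptors 20 of 121 were called (2 up and 18 down), and in the renin-angiotensin system 1 of 15 (up). Of 52 myosin and 19 tetraspanin features limma called 0, with 11 and 6 at an unadjusted p under 0.05.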

How the data were processed

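The deposited scanner files gave a processed signal in units of intensity for each spot, made by Agilent Feature Extraction 10.5.1.1 per the file headers, with no normalization between arrays. The series table held the same values. The log2 processed signal was averaged over the spots of a probe (non-control spots only), and the log2 75th percentile of spots well above background was subtracted. Probe positions are in rn4. The members and the gene lists were chosen with earlier results of these data known. For the choice of members, spots marked as not uniform or as outliers were kept, and for the fits they were left out.

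Tests used limma 3.58.1 in R 4.3.3 over all 18 arrays with 1 coefficient for each of the 6 groups, and Benjamini-Hochberg adjustment over all features tested. A feature was tested when at least 1 of the groups compared had it well above background on every array, and called when its adjusted p was under 0.05 and its log2 difference was beyond 1. The same steps were tried on simulated data. Tables and figures used Python 3.11.15 with pandas 2.3.3, numpy 2.4.6 and matplotlib 3.10.9.

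Genes were named by this rule: the 12 higher and 12 lower members with the largest weakest difference that had 1 symbol, not a LOC or RGD name; members in the gene lists; the 3 called members with the largest difference in each tested contrast; members within 500 kb of a member of another gene; and up to 3 features just inside and outside each limit. Mmp12, the features ENSRNOT00000058957 and A_64_P090824, the other genes of metal handling, the probes shown and the roles of the genes were chosen after their values were seen. Marker lists covered podocytes, proximal tubule, loop of Henle, distal tubule, collecting duct, endothelium, mesenchyme, immune cells, blood, liver, adrenal, skeletal muscle, fat and cycling cells. Gene lists by name covered solute carriers, oxidoreductases, conjugating enzymes, serpins, matrix genes, transcription factors, immune genes, myosins, Tmem genes, tetraspanins, olfactory receptors and the renin-angiotensin system.

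Alternatives were another percentile, quantile normalization, the log2 of the mean over spots, normexp background correction (offset 50), low signals raised to the lowest well above background, other treatment of marked spots, other limits and filters, array weights, slide, scan day or replicate number as a block, slide as a fixed term, exchange of the SHR and SHRSP labels at 6 weeks, and leaving out each array. Sequences before start sites are from RefSeq (GRCr8).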

Additional observations from a re-analysis of the deposited data

Results flagged for a closer look

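The difference between the mean of both hypertensive strains and WKY rats changed between 3 and 6 weeks of age in 19 features of the named members, by a limma test of the change itself (adjusted p under 0.05 over all features tested, here at any size, met by 17.9% of features). The change is made of the same differences that chose the members, so it is no result apart from that choice. The change on the log2 scale was -2.01 and -0.75 for the features of Spock2, -1.29 for Timd2, -1.24 for Sult1b1, -1.09 for Fkbp5 and -1.02 for ENSRNOT00000055412. It was -0.79 for ENSRNOT00000040473, -0.77 for Ucma, -0.67 and -0.58 for the features of Albfm1, -0.65 for Slc49a3, -0.51 for Defb29 and -0.28 for Slc66a2. It was 0.33 for Endog, 0.67 for ENSRNOT00000036545, 0.78 for Myl11, 0.82 for Hpdl, 1.11 for Serpina3m and 1.18 for Hhatl. A negative value means a narrower difference for a higher member and a wider one for a lower member.

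The difference between SHRSP and SHRs changed between the ages in 6 features by the same kind of test, met by 8.37% of features. The change was -1.3 for Krt76, -1.29 for Fkbp5, -0.89 for ENSRNOT00000040473, -0.71 for Tspan1, 0.72 for Slc30a2 and 1.02 for Defb29. These values rest on the SHR and SHRSP labels, and most features called between these strains at both ages had opposite signs. With the labels exchanged at 6 weeks Krt76, Fkbp5 and Defb29 were not called. For ENSRNOT00000036545, Hhatl, Serpina3m and the dimmer feature of Spock2, 1 side of the difference lay near background, and they passed the background filter only through the other.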

How the results depend on the processing

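The choice of members gave 67 higher and 74 lower features. With normexp background correction, which adds an offset and so shrinks differences between dim signals, 27 and 30 met the limits. With every SHR and SHRSP array beyond the limit 42 higher and 56 lower members were left, with all 18 arrays well above background 36 higher and 36 lower, with low signals raised to the floor of the array 50 and 58, and with a 4-fold limit 12 and 13.

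Called members numbered 1 for SHRSP against SHRs at 3 weeks, 0 at 6 weeks (25 at an unadjusted p under 0.05 by limma) and 3 for the change of that difference with age. They numbered 18, 14 and 17 for age in WKY rats, SHRs and SHRSP and 12 for the strain difference with age. In that order, adjusted p at any size gave 11, 6, 11, 47, 45, 61 and 31. A 4-fold limit gave 0 at 3 weeks, 0 for its change, 3, 4 and 3 for age and 2 for the strain difference. Normexp gave 2 at 3 weeks, 7, 4 and 7 for age and 3 for the strain difference. Well above background in all groups compared gave 11 for age in WKY rats, 7 in SHRs and 4 for the strain difference. For SHRSP against SHRs at 3 weeks, the 75th percentile of all spots, quantile normalization and array weights each gave 2, and scan day as a block and slide as a fixed term each gave 0. At 6 weeks quantile normalization, raised low signals and array weights each gave 1. Array weights gave 5 for the change of that difference. Scan day as a block gave 9 and slide as a fixed term 3 for age in WKY rats. Where limits, filters or the offset did not fix the change, the cause was not tested. With the labels of SHRs and SHRSP exchanged at 6 weeks, members called numbered 1 for the change of their difference, 10 for age in SHRs and 23 in SHRSP, and the change of that difference went to 0.02 for Krt76 and -0.4077 for Defb29, opposite in sign, because the difference at 6 weeks changes sign. The exchange, the fixed slide term and the mean of SHRs and SHRSP were chosen after seeing the data, and some contrasts could not be fitted with a fixed slide term.

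With replicate number as a block (replicate block), the counts were 1, 0, 3, 18, 14, 17 and 11. Replicate numbers carried little pairing: over 18401 features, residuals of 45 same-number pairs of arrays correlated with r from -0.50 to 0.35 and a median of 0.034, against 0.0021 for other pairs, and 8 of 18 arrays were closest to their own number.

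Leaving out each array in turn gave 62 to 71 higher and 70 to 82 lower members. Called members ranged from 0 to 2 for SHRSP against SHRs at 3 weeks, 0 to 1 at 6 weeks, 1 to 4 for its change, 17 to 19, 11 to 14 and 16 to 21 for age, and 7 to 12 for the strain difference. At 3 weeks there was no call without SHR replicate 1 or SHRSP replicate 3 of that age, and 2 calls without WKY replicate 1 or SHR replicate 3 at 6 weeks. At 6 weeks there was 1 call without SHR replicate 3 at 3 weeks or WKY replicate 1 at 6 weeks. The lowest count for the strain difference came without WKY replicate 2 at 3 weeks or WKY replicate 3 at 6 weeks.

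With low signals set to a floor, the dimmest signal well above background on the array, the weakest difference from WKY rats was -0.0341 for Hhatl and 0.0197 for Cd300c2l1, opposite in sign to the reported values, because both strains then sit at or near that floor. Over all named values and alternatives, 2672 stayed the same, 161 were no longer called, 79 moved and 4 changed sign. A call stayed the same when direction and call were kept. A weakest difference, which has no call, did so when it shifted by less than the standard deviation within groups. The 79 that moved were weakest differences that kept their direction, 48 of them with normexp. Members well above background in 1 strain alone have differences limited by that floor, so their folds are bounds.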
